A study of Mus musculus with 14 samples.

Results

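Glycolysis and hypoxia response genes were followed in cultured Th2 cells, as a set of 33 genes chosen by name and read by gene identifier from tables of 22598 genes. The set holds 1 glucose transporter, 16 glycolytic enzymes, 3 regulators of the flux through the pathway, 2 lactate transporters, 3 genes of the hypoxia-inducible factor (HIF) system and 8 hypoxia targets. RNA sequencing was done on CD4+ TCRb+ T cells of C57BL/6J mice, sorted from spleen as naive cells and then activated and driven towards the Th2 type, a helper T cell known for producing IL-4, IL-5 and IL-13. The 14 libraries make up 4 groups: mice lacking Ago1, Ago3 and Ago4 together (KO) at day 14 (n = 3), wild type (WT) at day 14 (n = 3), KO at day 7 (n = 4) and WT at day 7 (n = 4). The 3 deleted genes encode Argonaute proteins, which carry small RNAs. The design text describes the mice as littermates and once gives another day for the later cultures. Whether each library stands for its own mouse or culture is left unsaid in the labels, so the p-values below describe the spread among these samples and that spread may be technical. The labels also do not say which parts of the Argonaute genes were removed or whether the deletion was limited to some cells.

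Glycolysis splits glucose into pyruvate in the cytosol, and its lower steps yield ATP without oxygen. Activated T cells are known for running it fast even in oxygen and for exporting the product as lactate. HIF is a transcription factor whose alpha subunit is marked for destruction by oxygen-dependent prolyl hydroxylases. When oxygen is short it accumulates and raises transcription of glycolytic enzymes, of a kinase inhibiting pyruvate dehydrogenase, and of genes such as Vegfa.

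All 33 genes had enough reads to be tested, among 11591 genes tested in all. A second identifier of Aldoa held 0 to 8 reads per library and was not tested. Total counts ran from 23326248 to 35803197 per library. Ago1 had 0 to 2 reads in KO day 14 libraries and 67 to 100 in WT day 14 libraries, and 0 reads in KO day 7 libraries against 128 to 141 in WT day 7 libraries. Summed markers of CD4 T cells lay between 4426 and 7655 CPM (reads scaled to a common library total) in all groups. Summed markers of other cells were lower, at 0.297 to 4.21 CPM for B cells, 6.32 to 21.0 CPM for CD8 T cells, at most 0.0885 CPM for NK cells and 1.17 to 30.0 CPM for myeloid cells. Of these, Ms4a1, Pax5, Cd8a, Ncr1, Csf1r and Itgam stayed under 1 CPM in every library. WT day 14 libraries 3 and 2 stood farthest from their group mates, at an SD of 1.17 and 0.988 on the log2 scale, against 0.371 to 0.808 for the other libraries. The labels do not name sequencing runs. Lane and serial numbers in the deposited identifiers were read as 2 runs, a new run starting where a lane number came again. By this inference all KO day 7 libraries were in run 1 and all KO day 14 libraries in run 2. WT libraries were in both runs on both days (1 of 3 in run 1 at day 14 and 3 of 4 at day 7). Day and run therefore cannot be told apart in KO. Where the run is a term in a fit below, its effect is estimated from the WT libraries and carried over to KO.

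Between genes, levels were compared per length as the deposited RPKM (reads scaled to coding width and library total). Ldha, the lactate dehydrogenase subunit that favours lactate, had the highest RPKM of the set in all 4 groups: 1456 ± 421 in KO day 14, 1020 ± 71.8 in WT day 14, 1328 ± 143 in KO day 7 and 1083 ± 138 in WT day 7 (SD, n = 3 at day 14 and 4 at day 7). Aldoa, the main aldolase outside liver and brain, stood at 784 ± 207, 735 ± 54.4, 640.0 ± 45.1 and 544 ± 49.7 RPKM in the same groups. Pkm, which encodes the pyruvate kinase of most tissues, stood at 804 ± 282, 699 ± 60.0, 529 ± 40.5 and 552 ± 24.2 RPKM. These genes were followed in each group by Tpi1, Gpi1 and Pfkp at mean RPKM between 95.0 and 324. At the other end, Hk2 was at 0.236 to 1.57 RPKM in the group means, against 59.1 to 117 RPKM for Hk1, the more constant form of the first enzyme. Aldoa was above Pkm by more than either SD in KO day 7, and in the other groups their means lay within 1 SD of each other.

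Several of these levels are uncertain because of near-identical copies elsewhere in the genome. Of the 33 coding sequences, 20 shared no stretch of 50 bases with transcripts of another gene, and 13 did. All stretches of Pgk1 and Pgam1 were found in other transcripts, and these enzymes of the lower pathway averaged under 1 CPM in every group. Eno1 (83.3% of stretches), Bnip3 (76.8%), Bnip3l (73.4%), Pkm (52.9%), Gpi1 (40.9%), Ldhb (35.6%) and Ldha (28.4%) shared smaller parts. So did Aldoa (16.8%), Hif1a (13.8%), Tpi1 (13.7%) and Ankrd37 (12.6%). Gapdh, which is not in the set, had 2 to 55 reads per library with 94.2% of its stretches in other transcripts. The authors' handling of such reads during counting was not stated in any source used. None of Eno2, Slc16a3, Ddit4, Pdk1, Egln3, Vegfa, Aldoc, Hk2, Pfkfb3, Pfkfb4 and Slc2a3, on which most of the results below rest, shared any such stretch.

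**Figure D1:**
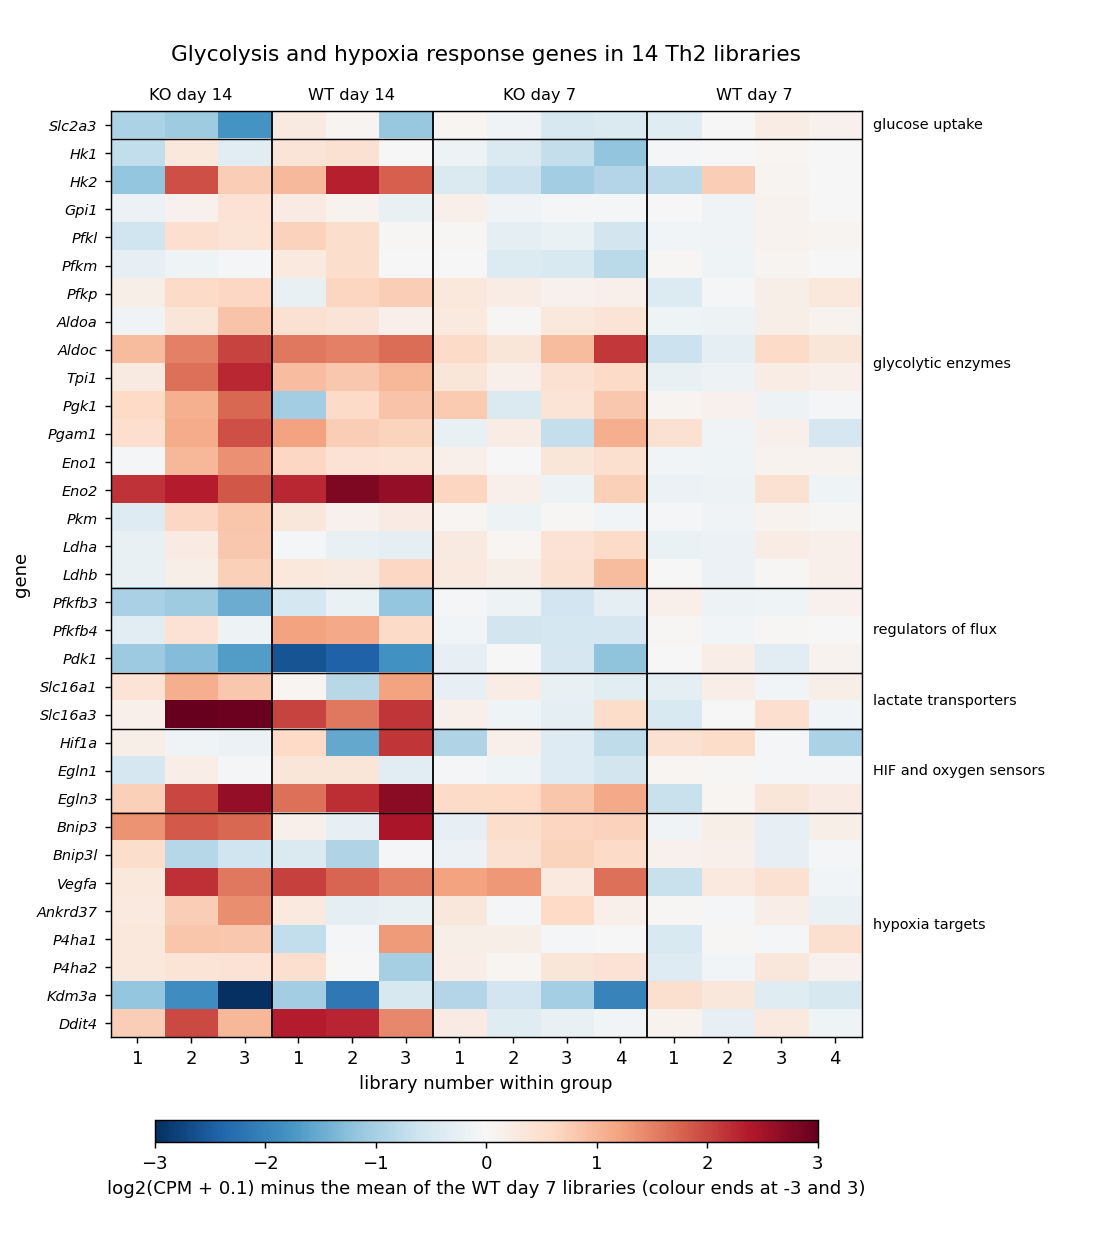
Level of each of the 33 genes (rows, grouped by role) in each of the 14 libraries (columns), as log2(CPM + 0.1) minus the mean of the WT day 7 libraries. Eno2, Egln3 and Ddit4 are above that mean in all 6 day 14 libraries, Pdk1 and Kdm3a are below it in all 6, and most enzymes lie closer to it.

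Day 14 was set against day 7 within each genotype. Eno2, Slc16a3 and Ddit4 rose and Pdk1 fell in both genotypes, while the abundant Ldha, Aldoa and Pkm did not pass in either. In KO, 7 of the 33 genes passed the test (21.2%, against 15.5% of all genes tested). Of these, 4 were higher at day 14 (12.1%, against 10.5% of all genes) and 3 lower (9.09%, against 4.92%). In WT, 9 of 33 passed (27.3%, against 20.5% of all genes), 8 of them higher (24.2%, against 13.2%) and 1 lower (3.03%, against 7.33%). A gene passed when the p-value of edgeR's quasi-likelihood test, adjusted by Benjamini and Hochberg over all 11591 genes, was under 0.05. The median log2 fold change of the 33 genes was 0.39 in KO and 0.41 in WT, against 0.02 and -0.00 over all genes tested. All day 14 libraries lay above all day 7 libraries for 5 of the 33 genes in KO (15.2%, against 13.6% of all genes) and below them for 2 (6.06%, against 10.2%), 23.8% of all genes being apart in either direction. In WT they lay above for 13 (39.4%, against 17.2%) and below for 3 (9.09%, against 13.8%), with 31.0% of all genes apart in either direction. In these bulk samples, fewer cells of a type and less RNA per cell cannot be told apart.

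Eno2, Slc16a3, Ddit4 and Pdk1 passed in the same direction in both genotypes, making up 4 of the 7 calls in KO and 4 of the 9 in WT. The stretches before their start sites are shown because these are the genes that both genotypes share. Each is read 5′ to 3′ on the gene's strand and lies within the 250 bases before the RefSeq start site, without bases that fall in an annotated exon. Capitals mark ACGTG or GCGTG, the core letters that HIF is known to bind, on either strand (written CACGT or CACGC when on the other strand). The sequences are RefSeq promoters of build GRCm38.p6, chr6:124769674-124769862 (minus strand) for Eno2, chr11:120948817-120949066 (plus) for Slc16a3, chr10:59951835-59952020 (minus) for Ddit4 and chr2:71872974-71873223 (plus) for Pdk1, the first of its 2 RefSeq promoters.
Eno2: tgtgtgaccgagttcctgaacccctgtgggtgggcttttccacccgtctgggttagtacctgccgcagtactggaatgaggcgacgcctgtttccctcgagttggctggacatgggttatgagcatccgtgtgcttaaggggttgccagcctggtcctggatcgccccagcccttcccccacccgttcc
Slc16a3: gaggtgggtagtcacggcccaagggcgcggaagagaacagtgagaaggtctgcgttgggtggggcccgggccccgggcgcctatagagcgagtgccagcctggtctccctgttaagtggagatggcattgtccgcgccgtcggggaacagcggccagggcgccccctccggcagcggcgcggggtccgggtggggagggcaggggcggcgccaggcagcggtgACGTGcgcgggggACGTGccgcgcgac
Ddit4: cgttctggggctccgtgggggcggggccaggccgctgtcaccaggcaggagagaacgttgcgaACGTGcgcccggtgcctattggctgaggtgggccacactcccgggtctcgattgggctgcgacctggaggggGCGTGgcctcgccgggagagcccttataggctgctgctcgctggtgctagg
Pdk1: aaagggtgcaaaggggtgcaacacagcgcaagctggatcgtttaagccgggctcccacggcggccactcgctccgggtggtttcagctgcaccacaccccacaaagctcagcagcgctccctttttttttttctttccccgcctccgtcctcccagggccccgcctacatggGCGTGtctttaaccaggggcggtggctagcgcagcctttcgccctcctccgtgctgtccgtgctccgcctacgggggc

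Slc16a3 holds 2 such matches in this stretch, Ddit4 holds 2, Pdk1 holds 1 and Eno2 holds none. RefSeq promoters of 300 bases were found for 31 of the 33 genes. ACGTG or GCGTG was present in at least 1 promoter of 28 of them (90.3%), against 46.7% of 27025 genes with a promoter. Counted by promoter, 36 of 47 held a match (76.6%), against 43.8% of 32851. ACGTG, with or without GCGTG, was in 51.1% of the 47 promoters and 19.6% of all. GCGTG, with or without ACGTG, was in 55.3% and 32.4%. CACGTG counts for ACGTG on both strands. A match is a description of the letters and not a measured binding site. The 33 genes were chosen by name, in part as hypoxia response genes, so a higher share than over all genes is built into the choice. The comparison takes in all genes with a promoter, whether or not they were tested here. The 31 genes also had 47 promoters, against 32851 for 27025 genes, which raises a share counted by gene. Control by HIF in these cells was not tested.

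Among the enzymes, Eno2 (ENSMUSG00000004267, chr6:124760053-124769673), an enolase best known from neurons, changed most. In KO it had 10.2, 11.6 and 8.20 CPM at day 14, against 3.48, 2.47, 1.97 and 3.67 CPM at day 7. In WT it had 10.8, 15.9 and 14.1 CPM at day 14, against 1.92, 1.95, 3.06 and 2.01 CPM at day 7. Every day 14 library was above every day 7 library in both genotypes. The log2 fold change was 1.79 ± 0.29 (SE) in KO (edgeR adjusted p = 0.000916) and 2.60 ± 0.30 in WT (edgeR adjusted p = 4.22e-05). Within the sequencing runs, the WT difference was 2.76 in run 1 (1 library against 3) and 2.64 in run 2 (2 against 1). With the run as a term, Eno2 alone among the 7 KO calls kept its call (2.11, edgeR adjusted p = 0.0191). The run effect in that fit comes from the WT libraries, so the fit does not separate day from run in KO.

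Tpi1 (ENSMUSG00000023456, chr6:124810586-124814296), the triose phosphate isomerase, was the other enzyme that rose in KO. Of its stretches of 50 bases, 13.7% were found in transcripts of other genes. It had 268, 697 and 1057 CPM in KO day 14 libraries, against 286, 245, 302 and 328 CPM in KO day 7 libraries, so that library 1 lay inside the day 7 range. The log2 fold change in KO was 1.22 ± 0.31 (edgeR adjusted p = 0.0167). The call ended without KO day 14 library 3 (0.73, adjusted p = 0.142), KO day 14 library 2 (1.19, 0.0542) or KO day 7 library 2 (1.14, 0.0513). It also ended when edgeR was fitted to the KO libraries alone (1.20, adjusted p = 0.057) or with the run as a term (1.30, 0.166). With limma-voom without sample weights it ended too (1.01, limma adjusted p = 0.0529). WT cells had 423, 386 and 438 CPM at day 14 against 189.8, 199, 256 and 247 CPM at day 7, without overlap, and missed the threshold (0.90 ± 0.31, edgeR adjusted p = 0.0566).

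Aldoc and Hk2 were called higher in WT alone. Aldoc (ENSMUSG00000017390, chr11:78322968-78327781), the brain form of aldolase, had 124, 119 and 133 CPM in WT day 14 libraries, against 26.3, 34.5, 61.4 and 53.1 CPM in WT day 7 libraries. In KO it had 80.1, 118 and 170 CPM at day 14 against 61.5, 53.2, 80.5 and 179 CPM at day 7, where library 4 was above all other libraries of the series. The log2 fold change was 0.39 ± 0.40 in KO (edgeR adjusted p = 0.604) and 1.52 ± 0.40 in WT (adjusted p = 0.0155). Hk2 (ENSMUSG00000000628, chr6:82725025-82774454), the inducible hexokinase, had 1.18, 10.8 and 4.64 CPM in KO day 14 libraries against 2.02, 1.72, 1.28 and 1.46 CPM in KO day 7 libraries. In WT it had 5.50, 14.3 and 9.77 CPM at day 14 against 1.56, 4.65, 2.90 and 2.72 CPM at day 7. The groups overlapped in KO and not in WT. Its log2 fold change was 1.77 ± 0.57 in KO (edgeR adjusted p = 0.0505) and 1.74 ± 0.56 in WT (adjusted p = 0.0424). Hk2 passed in KO without KO day 14 library 1 (2.25, adjusted p = 0.00422) or WT day 14 library 2 or 3 (0.0437 and 0.0477), and with DESeq2 (1.76, 0.0153). The WT call of Hk2 was kept in 4 of the 14 fits that left out 1 library. It was lost without WT day 14 libraries 2 and 3 (adjusted p = 0.145 and 0.0503), KO day 14 library 3 (0.0524), KO day 7 libraries 1 to 4 (0.0525, 0.0543, 0.0551 and 0.0532) and WT day 7 libraries 1, 3 and 4 (0.112, 0.0904 and 0.0920).

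The other enzymes did not pass over time. In KO the 14 enzymes short of the threshold ran from -0.23 ± 0.26 for Ldhb to 1.77 for Hk2, and in WT the 13 enzymes ran from -0.19 ± 0.22 for Ldha to 1.06 ± 0.59 for Pgam1. Ldha was at 3619 ± 1294 CPM in KO day 14 and 3620.0 ± 541 CPM in KO day 7 (log2 fold change -0.00 ± 0.22), and at 2535 ± 247 CPM in WT day 14 and 2887 ± 432 CPM in WT day 7. Pkm had 0.48 ± 0.22 in KO and 0.24 ± 0.22 in WT, and Aldoa 0.16 ± 0.20 and 0.33 ± 0.20. Pgk1, with 0.0743 to 1.09 CPM per library in all, had 0.88 ± 0.56 and 0.45 ± 0.59. The phosphofructokinases Pfkl, Pfkm and Pfkp lay between 0.26 and 0.44 in both genotypes, Hk1 at 0.39 and 0.29, and Gpi1 at 0.16 and 0.06. For Eno1 the values were 0.63 ± 0.25 and 0.49 ± 0.25.

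**Figure D2:**
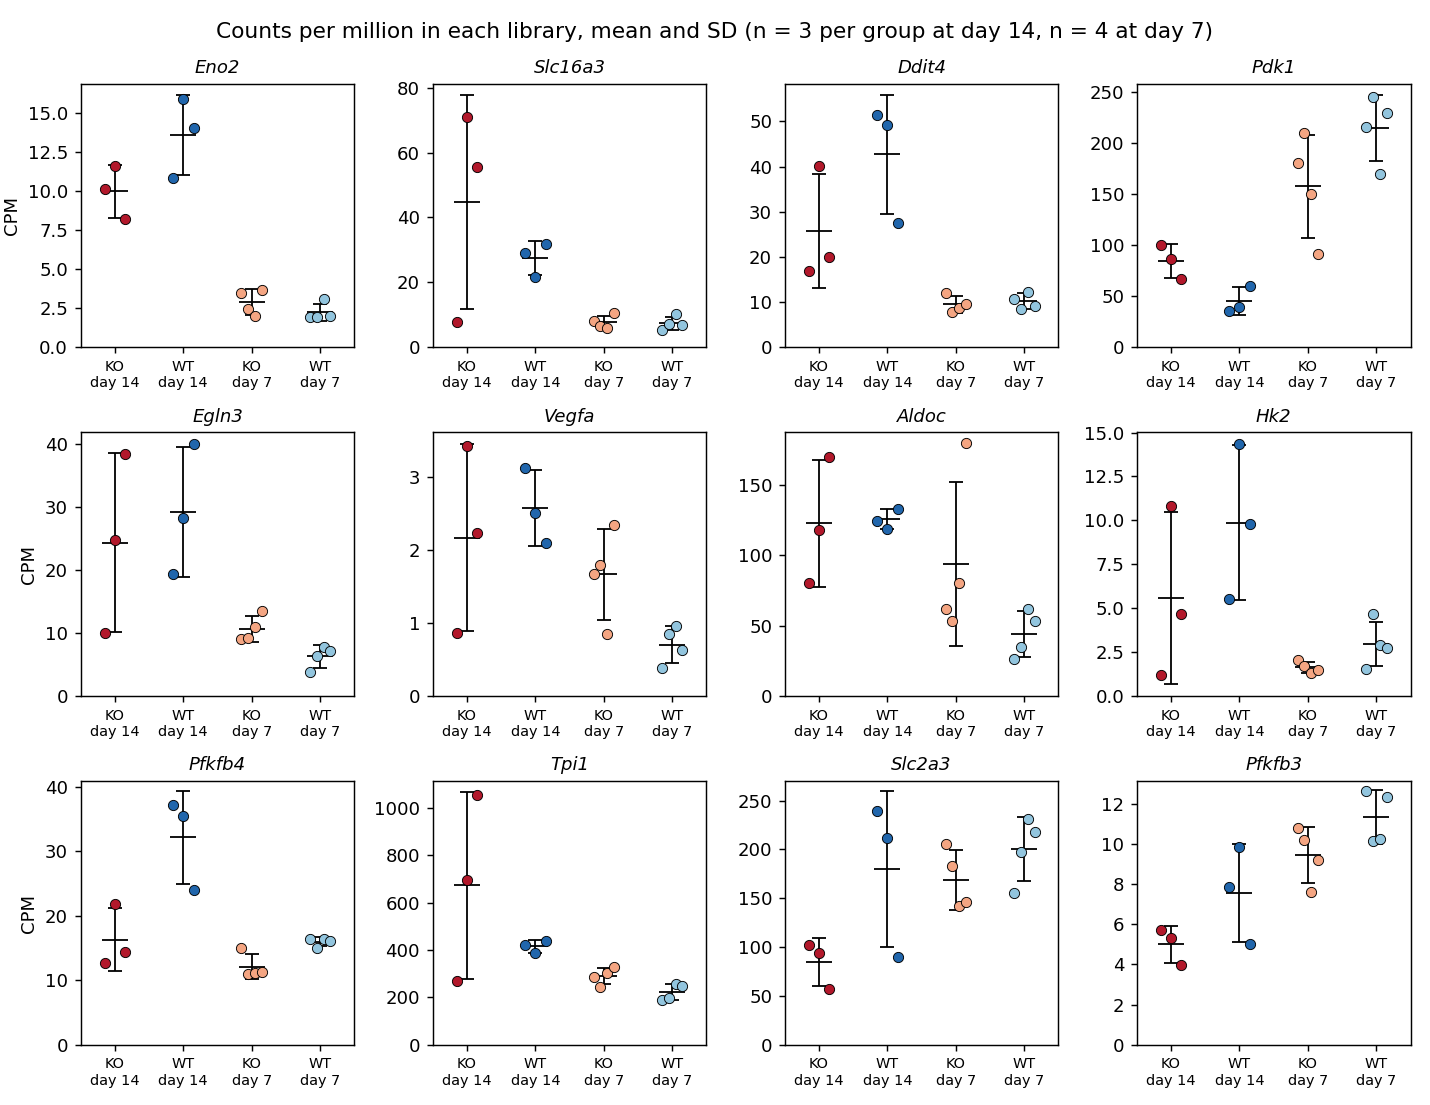
CPM of 12 genes in each library (points), with the mean (long line) and SD (bars) of each group, on axes from 0 with KO day 14, WT day 14, KO day 7 and WT day 7 from left to right. All day 14 libraries are above all day 7 libraries for Eno2, KO day 14 library 1 lies among the day 7 libraries for Slc16a3, and Pfkfb4 is higher in the 3 WT day 14 libraries than in every other library.

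Of the regulators of flux, Pdk1 fell. Pdk1 (ENSMUSG00000006494, chr2:71873224-71903858) encodes a kinase that switches off pyruvate dehydrogenase, and it is a classic HIF target. In KO it had 99.8, 85.8 and 66.4 CPM at day 14, against 180.3, 209, 149 and 91.5 CPM at day 7, where library 4 overlapped the day 14 range. In WT it had 35.3, 39.5 and 60.2 CPM at day 14, against 215, 244, 169 and 229 CPM at day 7, with no overlap. On the log2 scale this was -0.91 ± 0.28 in KO (edgeR adjusted p = 0.0389) and -2.25 ± 0.29 in WT (adjusted p = 0.000129), a level 1.88-fold lower at day 14 in KO and 4.76-fold lower in WT. In WT it was -2.42 within run 1 and -2.22 within run 2, and the call held in all 14 fits that left out 1 library. In KO it held in 5 of 14. It was also lost with library totals in place of TMM scaling (-0.86, 0.0786). The same held when edgeR was fitted to the KO libraries alone (-0.92, adjusted p = 0.0803) and with the run as a term (-1.04, 0.191). Among single libraries, it was lost without KO day 14 libraries 2 and 3 (adjusted p = 0.103 and 0.168), KO day 7 libraries 1 to 3 (0.0905, 0.116 and 0.0713) and WT day 7 libraries 1 to 4 (0.0537, 0.0521, 0.0521 and 0.0535).

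Pfkfb3 and Pfkfb4 encode enzymes that set the level of fructose 2,6-bisphosphate, the activator of phosphofructokinase. Pfkfb3 (ENSMUSG00000026773, chr2:11471433-11554077) had 5.73, 5.30 and 3.98 CPM in KO day 14 libraries, against 10.8, 10.2, 7.58 and 9.21 CPM in KO day 7 libraries. It fell in KO (-0.92 ± 0.27, edgeR adjusted p = 0.0333) and not past the threshold in WT, with 7.84, 9.85 and 5.01 CPM at day 14 against 12.6, 10.1, 10.2 and 12.3 CPM at day 7 (-0.58 ± 0.27, adjusted p = 0.146). The groups did not overlap in either genotype. The KO call ended without KO day 14 library 2 or 3 (adjusted p = 0.0806 and 0.141) and without KO day 7 library 1 or 2 (0.0814 and 0.0786). It also ended when edgeR was fitted to the KO libraries alone (-0.92, adjusted p = 0.0558) or with the run as a term (-0.74, 0.29). Pfkfb4 (ENSMUSG00000025648, chr9:108991778-109032228) had 37.2, 35.5 and 23.9 CPM in WT day 14 libraries, against 16.4, 15.0, 16.4 and 16.2 CPM in WT day 7 libraries, and 12.7, 21.8 and 14.4 CPM in KO day 14 libraries against 15.1, 10.9, 11.2 and 11.3 CPM in KO day 7 libraries. It rose in WT (1.01 ± 0.24, edgeR adjusted p = 0.00743) and overlapped between days in KO (0.43 ± 0.24, adjusted p = 0.277).

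Slc16a3 (ENSMUSG00000025161, chr11:120948480-120960868) encodes MCT4, the transporter that exports lactate from highly glycolytic cells. In KO it had 7.86, 70.9 and 55.6 CPM at day 14 against 7.96, 6.52, 5.89 and 10.4 CPM at day 7. KO day 14 library 1 stayed at the day 7 level while libraries 2 and 3 were higher than every other library of the series. In WT it had 29.1, 21.6 and 31.7 CPM at day 14 against 5.15, 7.22, 10.2 and 6.73 CPM at day 7, with no overlap. On the log2 scale the change was 2.54 ± 0.51 in KO (edgeR adjusted p = 0.0039) and 1.91 ± 0.51 in WT (adjusted p = 0.0154). The WT call ended without WT day 7 library 1 (1.77, adjusted p = 0.0504), and the KO call ended with the run as a term (2.64, adjusted p = 0.0962). Slc16a1, which encodes MCT1, a carrier of lactate in both directions, did not pass in either genotype (0.92 ± 0.36 in KO and 0.37 ± 0.36 in WT, edgeR adjusted p = 0.104 and 0.515).

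In the set, glucose uptake was represented only by Slc2a3 (ENSMUSG00000003153, chr6:122727809-122801640), which encodes GLUT3, a transporter of high affinity. It fell in KO, with 102, 94.2 and 56.8 CPM at day 14 against 206, 183, 142 and 146 CPM at day 7, without overlap (-1.0 ± 0.31, edgeR adjusted p = 0.0415). WT cells had 239, 212 and 89.4 CPM at day 14 against 155, 198, 231 and 218 CPM at day 7, and library 3 was lower than the rest of the WT libraries (-0.16 ± 0.30, adjusted p = 0.761). The KO call was kept in 7 of 14 fits that left out 1 library, and it ended with library totals in place of TMM scaling (-0.94, adjusted p = 0.0567). With the run as a term it ended as well (-0.58, edgeR adjusted p = 0.477). It was lost without KO day 14 libraries 2 and 3 (adjusted p = 0.0848 and 0.185), KO day 7 libraries 1 to 3 (0.101, 0.0895 and 0.0591) and WT day 7 libraries 2 and 4 (0.0580 and 0.0550).

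In the HIF system, Egln3 rose in WT while Hif1a and Egln1 did not pass. Egln3 (ENSMUSG00000035105, chr12:54178981-54203860) encodes PHD3, a prolyl hydroxylase that marks HIF for destruction and is itself induced by HIF. It had 9.96, 24.7 and 38.4 CPM in KO day 14 libraries against 9.08, 9.19, 10.9 and 13.4 CPM in KO day 7 libraries, and 19.3, 28.3 and 40.0 CPM in WT day 14 libraries against 3.79, 6.31, 7.79 and 7.19 CPM in WT day 7 libraries. KO day 14 library 1 lay within the KO day 7 range, and the WT groups did not overlap. The log2 fold change was 1.19 ± 0.39 in KO (edgeR adjusted p = 0.0544) and 2.22 ± 0.40 in WT (adjusted p = 0.00135). Without KO day 14 library 1 the KO value was 1.56 and passed (adjusted p = 0.00537), as it did without WT day 14 library 3 (1.19, adjusted p = 0.0385). Egln1, which encodes PHD2, the main HIF hydroxylase, was at 171 ± 40.5 CPM in KO day 14 and 151 ± 24.7 in KO day 7, and at 204 ± 49.9 CPM in WT day 14 and 182 ± 5.94 in WT day 7.

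Hif1a itself was uneven between libraries. It had 217, 176 and 169 CPM in KO day 14 libraries against 102, 213, 147 and 113 CPM in KO day 7 libraries, and 290.0, 65.7 and 843 CPM in WT day 14 libraries against 261, 282, 184 and 98.7 CPM in WT day 7 libraries. WT day 14 libraries 3 and 2 were the highest and the lowest of the whole series. The log2 fold change over time was 0.38 ± 0.58 in KO and 0.95 ± 0.57 in WT (edgeR adjusted p = 0.741 and 0.275). Without WT day 14 library 3 the WT value turned to -0.22 (adjusted p = 0.762), and without WT day 14 library 2 it was 1.46 and passed (adjusted p = 0.0282).

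Among the 8 hypoxia targets, Ddit4 rose in both genotypes and Vegfa in WT. Ddit4 (ENSMUSG00000020108, chr10:59949669-59951834) encodes REDD1, an inhibitor of mTORC1 that is induced by low oxygen and other stresses. It had 16.9, 40.2 and 20.0 CPM in KO day 14 libraries against 12.0, 7.74, 8.61 and 9.52 CPM in KO day 7 libraries. In WT it had 51.5, 49.2 and 27.5 CPM at day 14 against 10.8, 8.43, 12.3 and 9.15 CPM at day 7. The days did not overlap in either genotype. Its change on the log2 scale was 1.44 ± 0.32 in KO (edgeR adjusted p = 0.00604) and 2.07 ± 0.32 in WT (adjusted p = 0.000423). The KO call ended without KO day 14 library 2 (0.96, adjusted p = 0.0506) and with the run as a term (1.54, adjusted p = 0.0984).

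Vegfa (ENSMUSG00000023951, chr17:46016993-46032369), which encodes an angiogenic factor, was a low gene, with 0.857, 3.43 and 2.23 CPM in KO day 14 libraries against 1.68, 1.79, 0.846 and 2.35 CPM in KO day 7 libraries. WT cells had 3.12, 2.50 and 2.10 CPM at day 14 against 0.390, 0.846, 0.958 and 0.627 CPM at day 7. The groups overlapped in KO (0.39 ± 0.46, edgeR adjusted p = 0.667) and not in WT (1.86 ± 0.48, adjusted p = 0.012). Kdm3a, a histone demethylase gene induced by HIF, was at 40.0 ± 23.0 CPM in KO day 14 against 69.1 ± 25.1 in KO day 7, and at 67.3 ± 34.8 CPM in WT day 14 against 148 ± 48.1 in WT day 7. It did not pass (-0.79 ± 0.47 and -1.13 ± 0.47, edgeR adjusted p = 0.316 and 0.108), but it passed in WT without WT day 14 library 3 (-1.56, adjusted p = 0.0402) and with the run as a term (-1.65, adjusted p = 0.0335).

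The mitophagy receptor genes Bnip3 and Bnip3l did not pass. Bnip3 had 3.19, 4.55 and 4.19 CPM in KO day 14 libraries against 0.989, 1.79, 1.94 and 1.99 CPM in KO day 7 libraries, and 1.34, 1.00 and 7.05 CPM in WT day 14 libraries against 1.11, 1.37, 0.990 and 1.38 CPM in WT day 7 libraries. The days were apart in KO (1.24 ± 0.54, edgeR adjusted p = 0.147), and in WT the difference lay in library 3 (1.37 ± 0.54, adjusted p = 0.0901), without which it was -0.05 (adjusted p = 0.923). It passed in KO without WT day 14 library 3 (1.24, adjusted p = 0.00906), and in WT without WT day 14 library 1 (1.73, 0.0466) or 2 (1.79, 0.0213). Bnip3l had -0.61 ± 0.36 in KO and -0.43 ± 0.36 in WT. The prolyl 4-hydroxylase genes P4ha1 and P4ha2, which act on collagen, and Ankrd37 lay between -0.05 and 0.61 in both genotypes (edgeR adjusted p of 0.206 or more).

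**Figure D3:**
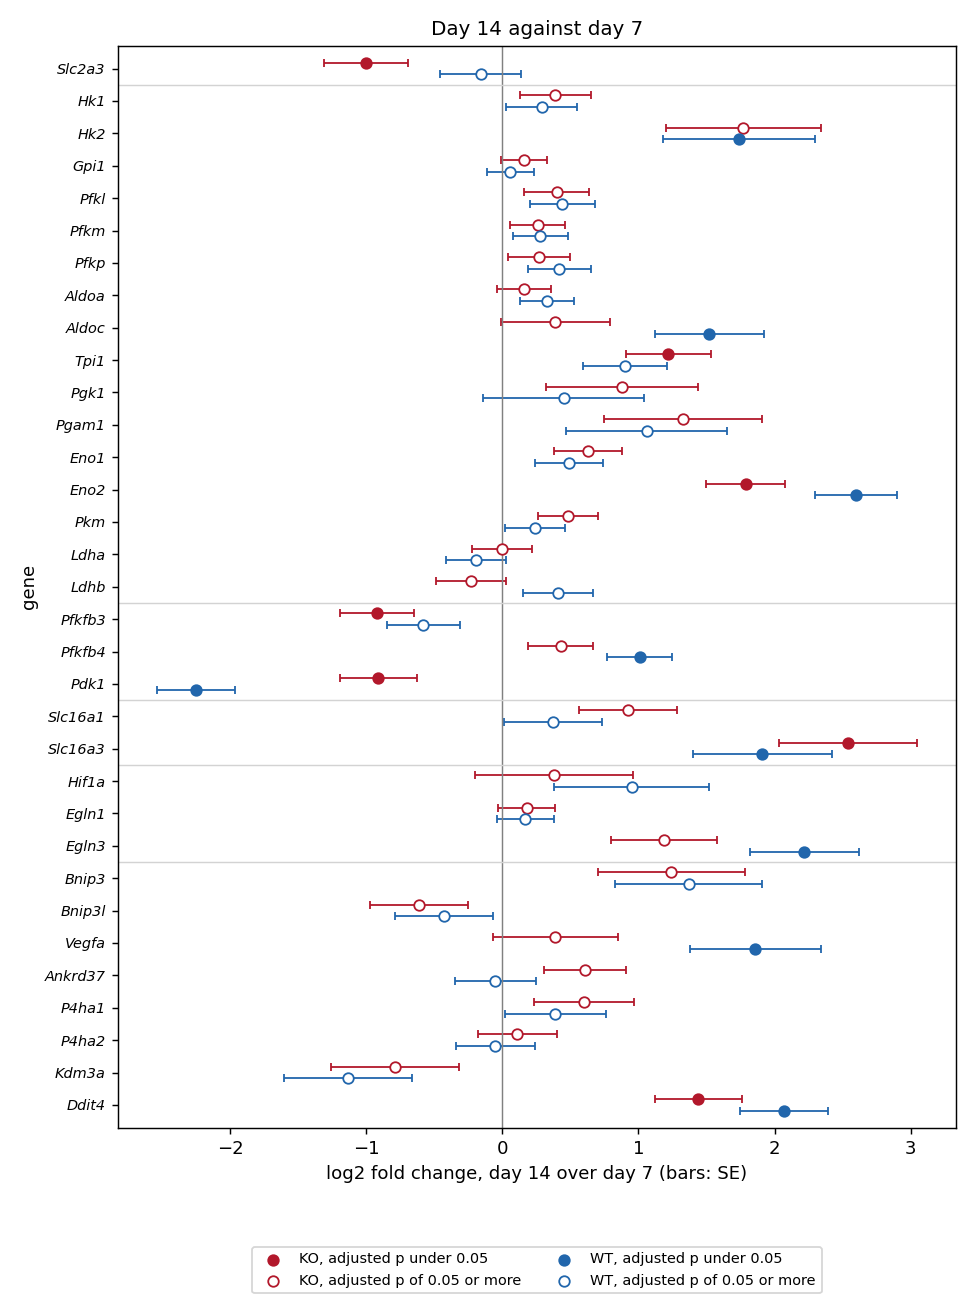
Log2 fold change of day 14 over day 7 for each of the 33 genes (rows), in KO (red, upper point) and WT (blue, lower point) with SE bars; filled points have an edgeR adjusted p under 0.05. Filled points of both genotypes are seen for Eno2, Slc16a3 and Ddit4 on the right and for Pdk1 on the left.

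All of the 9 WT calls kept their direction within each inferred sequencing run, with values of 0.86 or more for the 8 higher genes. With the run as a term 1 gene stayed called higher and 0 lower in KO (263 and 107 of all genes). KO has no within-run value, and the run effect in that fit comes from the WT libraries. Taking out a fitted trend with coding GC content and length, library by library, moved the split of calls over all genes. In KO, 1222 genes were higher and 570 lower without that step, and 1411 and 1952 with it. In WT the counts were 1525 and 850 without and 1675 and 2168 with it. The median change over all genes was then -0.15 in KO and -0.13 in WT, and 7 of the 33 genes were called higher in KO. Marker lists of dividing and of other cells also held calls over time. The 16 genes of dividing cells (G2 and M phase) summed to 848 to 1884 CPM in KO day 14 libraries against 82.5 to 195 in KO day 7 libraries, and to 108 to 700 CPM in WT day 14 libraries against 75.1 to 88.4 in WT day 7 libraries, with 14 called higher in KO and 8 in WT. The 6 myeloid markers summed to 15.9 to 27.1 CPM in KO day 14 against 2.19 to 7.35 in KO day 7, and to 8.59 to 30.0 CPM in WT day 14 against 1.17 to 2.59 in WT day 7, with Adgre1 and Cd68 called higher in both genotypes and Cd14 in WT. The 5 mast cell markers summed to 22.5 to 130 CPM in KO day 14 against 47.0 to 82.2 in KO day 7, and to 1.07 to 5.69 CPM in WT day 14 against 30.5 to 64.6 in WT day 7. Kit was called higher in KO and lower in WT, with a called interaction (8.23 ± 1.32, edgeR adjusted p = 0.037), and Cpa3 lower in WT. Among T cell markers Cd5 was called lower in both genotypes, Cd4 in KO and Trac in WT. Cd79b was called lower in both and Cd79a in KO, and Hba-a1, under 1 CPM in every library, higher in KO. Their part in the changes of the 33 genes was not tested.

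Whether the change over time differed between genotypes was tested as the interaction, the KO change minus the WT change. It passed for 0 of the 33 genes (against 0.0863% of all genes tested, 0.0604% higher and 0.0259% lower), and 2 had an unadjusted p under 0.05, Pdk1 and Vegfa (6.06%, against 7.97% of all genes). The interaction of Pdk1 was 1.35 ± 0.39 (edgeR adjusted p = 0.256), since its level was 1.88-fold lower at day 14 in KO and 4.76-fold lower in WT. It passed without WT day 14 library 3 (1.61, edgeR adjusted p = 0.0408), where 272 of all 11755 genes were called higher and 108 lower. For Vegfa the value was -1.48 ± 0.67 (adjusted p = 0.612), for Aldoc -1.13 ± 0.57 (0.668) and for Egln3 -1.03 ± 0.56 (0.726). Ankrd37 (0.66 ± 0.42) and Slc16a3 (0.63 ± 0.71) followed Pdk1 at the upper end. The calls of Aldoc, Pfkfb4, Egln3, Vegfa and Hk2 in WT alone, and of Tpi1, Slc2a3 and Pfkfb3 in KO alone, are therefore not shown to differ between genotypes.

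The balance between forms of the same enzyme is given as a share of the summed RPKM of both forms, with no test. Pfkfb4 made up 79.5 ± 5.51% of Pfkfb3 and Pfkfb4 in KO day 14 and 61.2 ± 3.36% in KO day 7, and 84.2 ± 2.21% in WT day 14 and 63.6 ± 2.35% in WT day 7, with no overlap between days. Eno2 remained a small part of the summed RPKM of Eno1 and Eno2, at 3.44 ± 1.92% in KO day 14 and 1.33 ± 0.360% in KO day 7. In WT it was 5.13 ± 1.23% at day 14 and 1.21 ± 0.229% at day 7. Eno3, at 20.5 to 30.3 CPM in the group means, is not in this sum. For the Eno2 share too the days did not overlap, although it rests on Eno1 counts that are uncertain. In KO they were barely apart, with 1.724% in day 14 library 3 against 1.71% in day 7 library 1. Egln3 was 18.2 ± 7.63% of Egln1 and Egln3 in KO day 14 and 10.9 ± 3.44% in KO day 7, and 20.1 ± 9.96% in WT day 14 and 5.47 ± 1.59% in WT day 7. Slc16a3 ran from 14.8% in KO day 14 library 1 to 49.1% in KO day 14 library 2, against 14.0 to 27.7% in KO day 7, and from 28.7 to 53.1% in WT day 14 against 14.9 to 24.0% in WT day 7. Hk2 stayed under 1.71% of the summed RPKM of Hk1 and Hk2 in every library.

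**Figure D4:**
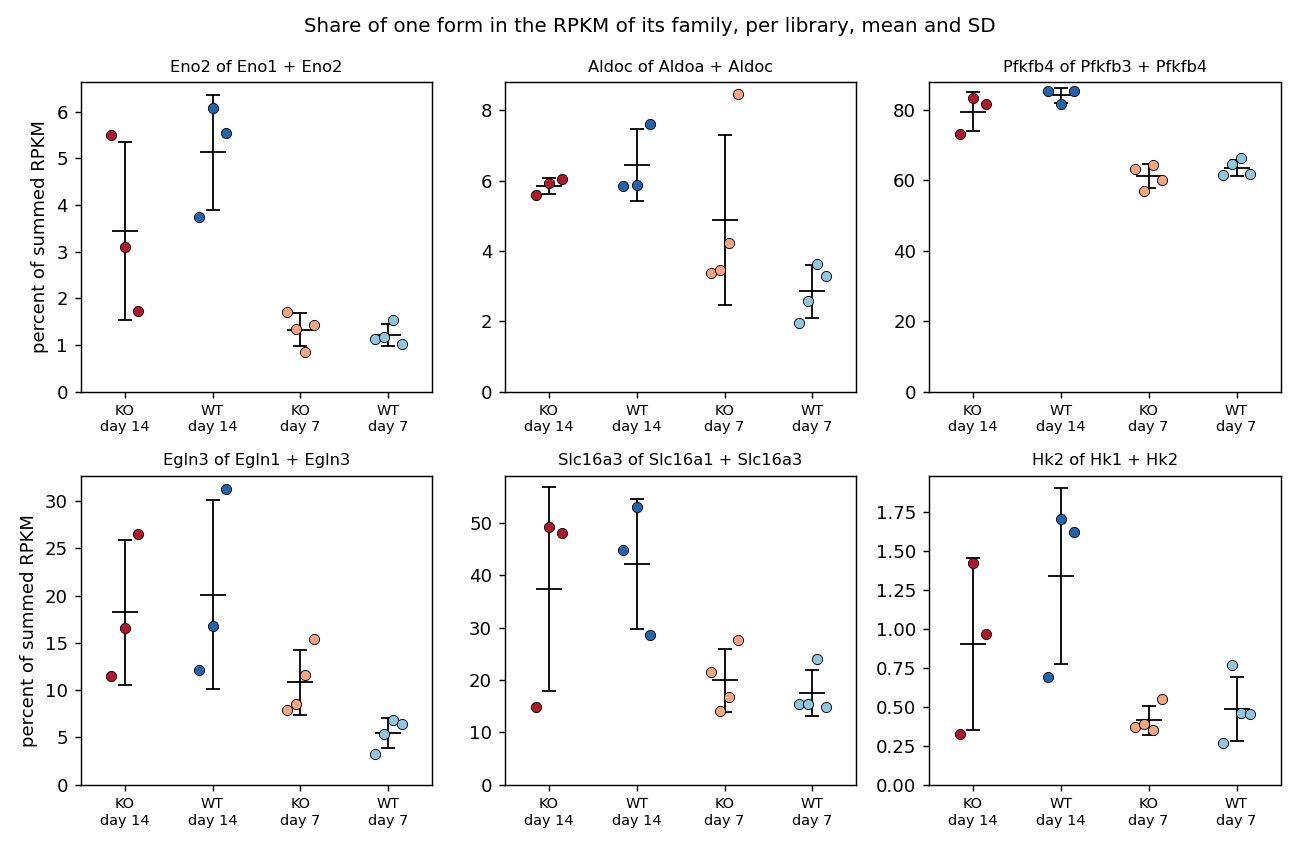
Share of one form in the summed RPKM of its pair, in percent, for each library (points) with group mean (long line) and SD (bars), on axes from 0 and with KO day 14, WT day 14, KO day 7 and WT day 7 from left to right. The Pfkfb4 share is 73.2 to 85.5% at day 14 and 56.9 to 66.4% at day 7, whereas Eno2 and Hk2 remain minor forms.

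The genotype comparison at day 14 asked which of these genes differ between KO and WT cultures. None of the 33 passed in edgeR (0 of 33, against 1.42% of all genes tested, 0.845% higher and 0.578% lower), and 6 had an unadjusted p under 0.05 (18.2%, against 21.7% of all genes). KO and WT day 14 libraries did not overlap for 4 genes (12.1%, against 14.9% of all genes), Pdk1 and Ankrd37 being higher in KO (6.06%, against 9.70%) and Pfkfb4 and Pfkm lower (6.06%, against 5.25%). Pfkfb4, at 16.3 ± 4.84 CPM in KO and 32.2 ± 7.20 CPM in WT, had the smallest adjusted p (-0.98 ± 0.26, edgeR adjusted p = 0.0678). Slc2a3 was at 84.5 ± 24.4 CPM in KO and 180.0 ± 79.7 CPM in WT (-1.09 ± 0.33, adjusted p = 0.094), and Pdk1 at 84.0 ± 16.8 CPM in KO and 45.0 ± 13.3 CPM in WT (0.90 ± 0.29, adjusted p = 0.116). Ankrd37, an ankyrin repeat gene induced by hypoxia, was at 7.75 ± 3.09 CPM in KO and 4.04 ± 0.945 CPM in WT (0.94 ± 0.32, adjusted p = 0.13).

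Other members lay farther from the threshold at day 14. Hif1a had -1.09 ± 0.63 (edgeR adjusted p = 0.321), which became 0.08 without WT day 14 library 3. Pgk1 had 1.01 ± 0.60 (adjusted p = 0.34), Ldha 0.51 ± 0.24 (0.224) and Ddit4 -0.73 ± 0.34 (0.226). The median of the 33 genes was 0.03, against 0.01 over all genes. Within run 2, with 3 KO and 2 WT libraries, Pfkfb4 was at -0.91, Slc2a3 at -0.84, Pdk1 at 0.85 and Ankrd37 at 0.78. The count depended on a single library and on the test used. Without WT day 14 library 3, 4 of the 33 genes were higher in KO, among them Bnip3 (1.76, edgeR adjusted p = 0.00865) and Pdk1 (1.17, 0.0189), and 3 were lower, Slc2a3 (-1.41, 0.00407), Pfkfb4 (-1.16, 0.00815) and Pfkfb3 (-0.82, 0.0358). In that fit 1477 of all 11755 genes tested were higher and 1163 lower. Without KO day 14 library 1, 1 was higher, as were 230 of all 11790 genes. Without KO day 14 library 2, Pfkfb4 (-1.25, edgeR adjusted p = 0.0291) and Ddit4 (-1.21, 0.0469) were lower, as were 425 of all 11778 genes. DESeq2 called Ankrd37 and Pdk1 higher (adjusted p = 0.0398 and 0.0499) and Pfkfb4 and Slc2a3 lower (0.00354 and 0.0286), while over all 11591 genes it called 541 higher and 452 lower, against 98 and 67 in edgeR. Beside these values, the G2 and M phase genes Cdc20 and Plk1 were called higher in KO at day 14, and the mast cell genes Cpa3 and Kit as well (summed mast cell markers 22.5 to 130 CPM in KO and 1.07 to 5.69 CPM in WT, with Fcer1a, Ms4a2 and Mcpt4 under 1 CPM everywhere). Their part in the genotype values was not tested.

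At day 7 again 0 of 33 genes passed in edgeR (against 0.0949% of all genes tested, 0.0518% higher and 0.0431% lower), and 4 had an unadjusted p under 0.05 (12.1%, against 23.4% of all genes). KO and WT libraries did not overlap for 4 genes (12.1%, against 22.2%), Ldhb and Egln3 being higher in KO (6.06%, against 9.27%) and Hk1 and Kdm3a lower (6.06%, against 12.9%). Kdm3a had 76.4, 95.2, 69.8 and 35.1 CPM in KO libraries against 197, 180.2, 111 and 102 CPM in WT libraries (-1.09 ± 0.43, edgeR adjusted p = 0.164). Hk1, the hexokinase with the higher level, was at 434 ± 128 CPM in KO and 647 ± 17.9 CPM in WT (-0.58 ± 0.24, adjusted p = 0.178). At the upper end stood Vegfa, at 1.67 ± 0.619 CPM in KO and 0.705 ± 0.251 CPM in WT (1.23 ± 0.45, adjusted p = 0.155), Aldoc, at 93.7 ± 58.3 CPM in KO and 43.8 ± 16.2 CPM in WT (1.10 ± 0.38, 0.154), and Egln3 (0.76 ± 0.37, 0.227). Without KO library 4 Aldoc was at 0.60. Hk2 was the other low value (-0.87 ± 0.54, adjusted p = 0.338). Within run 1, with 4 KO and 3 WT libraries, Kdm3a was at -0.96, Hk1 at -0.64, Vegfa at 0.92 and Aldoc at 0.78. Hif1a (-0.52 ± 0.54), Slc2a3 (-0.25 ± 0.28), Pfkfb3 (-0.26 ± 0.24), Aldoa (0.26 ± 0.19), Pgk1 (0.58 ± 0.56), Ldha (0.33 ± 0.20), Pdk1 (-0.44 ± 0.25), Bnip3 (0.47 ± 0.51) and Ddit4 (-0.10 ± 0.29) did not pass either. The median of the 33 genes was 0.07, against -0.01 over all genes.

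**Figure D5:**
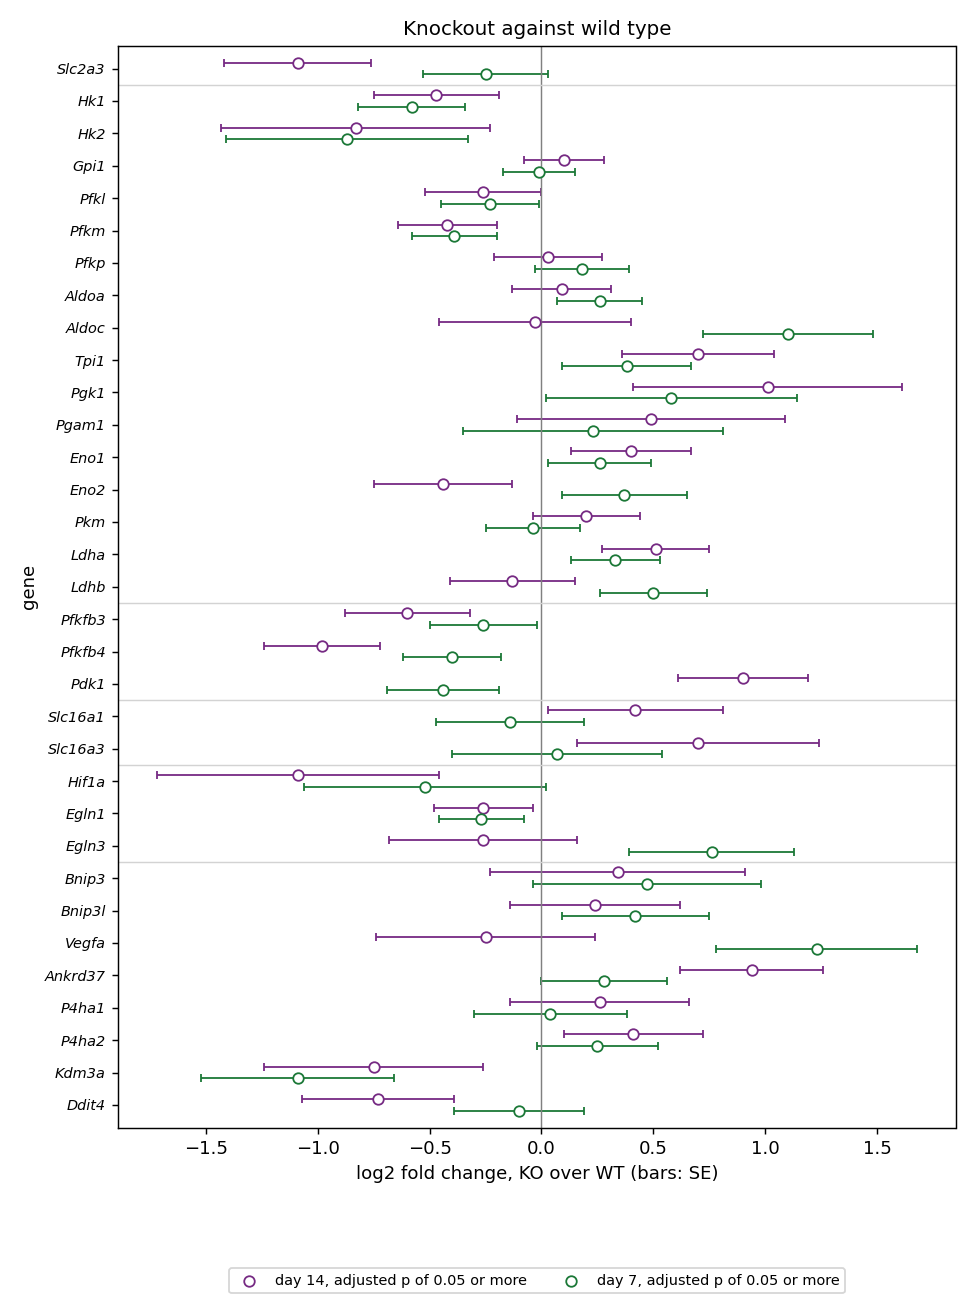
Log2 fold change of KO over WT for each of the 33 genes (rows), at day 14 (purple, upper point) and day 7 (green, lower point) with SE bars; open points have an edgeR adjusted p of 0.05 or more, which holds for all of them. The points lie between -1.09 and 1.23 and on both sides of 0.

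Genes of the same pathways outside the set were read from lists chosen by function. Of 26 tested genes of glycolysis and pyruvate use, 4 were higher and 0 lower at day 14 in KO (against 10.5% and 4.92% of all genes), and 4 higher and 1 lower in WT (against 13.2% and 7.33%). The median log2 fold change of the list was 0.20 in KO and 0.05 in WT. Slc2a6, a glucose transporter gene of the same family as Slc2a3, rose in both: 42.9 ± 19.7 CPM in KO day 14 against 7.76 ± 4.22 in KO day 7 (2.47 ± 0.43, edgeR adjusted p = 0.00148), and 119 ± 31.4 CPM in WT day 14 against 5.77 ± 1.80 in WT day 7 (4.37 ± 0.46, adjusted p = 2.9e-05). Slc2a1, of the same family, was at 337 ± 50.8 CPM in KO day 14 against 289 ± 35.0 in KO day 7. In WT it was at 369 ± 77.1 CPM at day 14 against 310 ± 35.7 at day 7. Slc2a1 did not pass in either genotype (0.22 ± 0.18 in KO and 0.25 ± 0.18 in WT, edgeR adjusted p = 0.489 and 0.37). Pdha1, a subunit gene of the pyruvate dehydrogenase that Pdk1 inhibits, fell in WT (-0.93 ± 0.22, adjusted p = 0.00686). Bsg, which encodes the partner that brings lactate transporters to the membrane, rose in WT (0.69 ± 0.22, adjusted p = 0.0375). None of 8 tested genes of the pentose phosphate pathway passed in any comparison.

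Of 31 other hypoxia response genes, 6 were higher and 3 lower at day 14 in KO (against 10.5% and 4.92% of all genes), and 6 higher and 0 lower in WT (against 13.2% and 7.33%). The median log2 fold change of the list was 0.22 in KO and 0.25 in WT. Stc2, which encodes a secreted stanniocalcin, was at 80.4 ± 56.8 CPM in KO day 14 against 5.96 ± 1.77 in KO day 7 (3.76 ± 0.49, edgeR adjusted p = 0.000211), and at 58.4 ± 17.5 CPM in WT day 14 against 5.23 ± 0.695 in WT day 7 (3.48 ± 0.48, adjusted p = 0.000225). Bhlhe40 also rose in both, as did the low genes Plod2 and Stc1. Plod2 was at 4.18 ± 0.479 CPM in KO day 14 against 0.221 ± 0.136 in KO day 7. In WT it was at 1.747 ± 2.075 CPM at day 14, with an SD above the mean, against 0.1395 ± 0.0823 at day 7. Stc1 was at 6.56 ± 0.258 CPM in KO day 14 against 0.815 ± 0.883 in KO day 7. In WT it was at 2.20 ± 1.19 CPM at day 14 against 0.316 ± 0.115 at day 7. The carbonic anhydrase genes Car9 and Car12 rose in KO, Hmox1 and Angptl4 in WT, and Mxi1, Ndrg1 and Gpr146 fell in KO. Neither set of 31 nor of 26 genes held a call between KO and WT at either day.

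Among 14 HIF subunits and oxygen sensors, Epas1, which encodes HIF-2 alpha, was the one called between genotypes. It was lower in KO at day 14, as were 0.578% of all genes tested. It was at 23.6 ± 14.4 CPM in KO day 14 and 90.3 ± 20.0 CPM in WT day 14 (-1.94 ± 0.44, edgeR adjusted p = 0.0447), and at 7.67 ± 1.94 CPM in KO day 7 and 7.94 ± 1.65 CPM in WT day 7. This day 14 call ended when edgeR was fitted to the day 14 libraries alone, where 0 of all 11238 genes tested were called higher and 0 lower. Over time 2 of the 14 were higher and 0 lower in KO (against 10.5% and 4.92% of all genes). The same counts held in WT (against 13.2% and 7.33%). Epas1 rose in both, by 1.62 ± 0.40 in KO (adjusted p = 0.0136) and 3.51 ± 0.42 in WT (adjusted p = 7.07e-05). Arnt2 was called higher in KO and Egln3 in WT. Of 16 genes of mTORC1 control and amino acid uptake, 2 were higher and 1 lower over time in KO (against 10.5% and 4.92% of all genes). In WT 2 were higher and 0 lower (against 13.2% and 7.33%). Sesn2 and Slc7a5 rose in both genotypes and Rragd fell in KO.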

How the data were processed

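RNA of 14 libraries was measured by paired-end sequencing after TruSeq preparation, with 1 table of 22598 genes per library. The deposited counts are whole reads per gene over a coding width, per the file headers. The submitters' processing notes name GSNAP and the build GRCm38; the counter and its strand setting are not stated in any source used. The deposited RPKM values were scaled by the authors to a library total above the sum of the counts, as their values show, and served only for levels between genes.

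From the counts, CPM used the sum of counts times the TMM factor as library size. edgeR 4.0.16 (filterByExpr, TMM factors, robust quasi-likelihood test) fitted 1 mean per group over all 14 libraries, with Benjamini-Hochberg adjustment over 11591 genes. Its steps were tested on simulated counts with the same spread for every gene, no outlying library and no run effect. That test does not cover the uneven libraries seen here. Symbols and coordinates come from GENCODE vM21, which matched 22457 identifiers. Alternatives were other scalings, filters, DESeq2 1.42.0, limma 3.58.1 (voom) and a GC and length offset. Further alternatives took the inferred sequencing run or the replicate number as a term, or left out each library. Full statistics are given for called genes, for the 3 highest and 3 lowest per comparison and for 12 fixed genes, and up to 6 called genes per other list are named. The members and lists were chosen with earlier results of these data known. Per-library depth is 23326248 to 35803197 counts, and precision of low genes is limited by it.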

Additional observations from a re-analysis of the deposited data

Results flagged for a closer look

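In groups of 4 libraries, 2 of 66 sets of values of the 33 genes (3.03%) held a library far from its mates, and chance gives about 1 in 20. Eno2 was at 3.065 CPM in WT day 7 library 3, against 1.92 to 2.01 CPM in the other WT day 7 libraries. Pfkfb4 was at 15.06 CPM in KO day 7 library 1, against 10.9 to 11.3 CPM in the other KO day 7 libraries.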

How the results depend on the processing

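Counts of called genes among the 33 moved with the test and with single libraries. Between KO and WT at day 7, limma-voom with sample weights called 7 higher and 7 lower, against 0 and 0 in edgeR, and it also called 2321 and 2754 of all genes. At day 14 it called 2 higher and 3 lower, and 1124 and 836 of all genes. DESeq2 called 2 and 2 (541 and 452 of all genes). The GC and length offset called 1 lower (280 higher and 259 lower of all genes). Voom without weights, chosen after seeing the data, called 1 lower (242 higher and 178 lower of all genes). For day 14 over day 7 in KO, 1 gene was lower with library totals (492 of all genes) and 1 with only the compared groups (452). With the run as a term 1 was higher and 0 lower (263 and 107 of all genes). With the GC and length offset 7 were higher (1411 of all genes) and with weighted voom 10 (1810 of all genes). In WT 2 genes were lower with the run as a term, with the offset and with weighted voom (892, 2168 and 2367 of all genes). Weighted voom called 1 higher interaction among the 33 genes, and 345 among all genes.

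Leaving out 1 library at a time gave, between KO and WT at day 14, 0 to 4 higher and 0 to 3 lower genes. Over all genes these fits called 31 to 1477 higher and 9 to 1163 lower. Over time it gave 2 to 9 higher and 0 to 4 lower in KO (770 to 1587 and 291 to 882 of all genes). In WT it gave 6 to 10 higher and 1 to 2 lower (1112 to 1695 and 562 to 1844 of all genes). For the interaction it gave 0 to 1 higher (1 to 272 of all genes). Single values changed sign in these fits between -0.24 and 0.00 for Ddit4 at day 7. At day 14 they ran from -0.19 to 0.30 for Aldoa, -0.08 to 1.76 for Bnip3, -0.75 to 0.11 for Egln3, -1.60 to 0.08 for Hif1a and -0.74 to 0.14 for Vegfa. Over time in KO they ran from -0.31 to 0.21 for Ldha, -0.11 to 0.77 for Vegfa and -0.12 to 0.36 for Aldoa. In WT they ran from -0.05 to 1.79 for Bnip3, -0.22 to 1.46 for Hif1a, -0.02 to 0.91 for Pgk1 and -0.42 to 0.17 for Slc2a3.

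Other settings also turned signs of values that passed no test. Between KO and WT at day 14, Aldoa was at -0.02 with only the compared groups and Egln3 at 0.14 with weighted voom. Over time in KO, Ldha was at 0.01 with library totals, 0.02 with a mean of at least 1 CPM, 0.12 with the run and 0.04 with weighted voom, Hif1a at -1.35 with the run and Aldoa at -0.08 with the offset. In WT, Hif1a was at -0.25 and Slc2a3 at 0.02 with the run, and weighted voom gave -0.08 for Hif1a, 0.13 for Slc2a3 and -0.75 for Pgk1. The causes were not tested. Libraries with the same replicate number did not deviate together (correlations from -0.456 to 0.417, 7 of 19 over 0.1), so the numbers were not taken as pairs. With the replicate block, 5 genes were higher and 3 lower over time in KO (1108 and 499 of all genes). In WT 9 were higher and 1 lower (1426 and 795 of all genes), and 0 passed between genotypes or in the interaction. Ldha in KO was at 0.04. The interaction had no separate fit on only the compared groups. Depth limits low genes such as Pgk1, Pgam1 and Vegfa, and the first 2 also share all their stretches with other transcripts.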
